A study of Mus musculus with 6 samples.

Results

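The genes described here encode the mitochondrial import machinery named for the translocases of the outer membrane (TOM) and the inner membrane (TIM). Members were the rows of the deposited count table whose symbol begins with Timm or Tomm followed by a number, which gave 25 of 24421 genes, 14 Timm and 11 Tomm rows. Libraries came from primary neural stem cells of E13.5 mouse embryos, labelled as brain tissue. There were 3 WT libraries and 3 libraries from Pml knockout cells, which lack the promyelocytic leukemia protein that builds nuclear bodies. Both genotypes grew at 20% oxygen as neurospheres, which are free-floating balls of progenitors, with EGF and FGF2 at 20 ng/ml each, and were lysed on day 4 after dissociation. All 6 libraries carry 1 batch label. The labels do not give the strain, the part of Pml that was removed, or whether replicates were separate cultures or embryos. The spread that enters each p-value is that between these 6 samples and may be technical. The series title names mitochondrial integrity among its subjects.

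Most mitochondrial proteins are encoded in the nucleus, made in the cytosol and imported unfolded. Receptors of the TOM complex bind the precursors and pass them through the Tomm40 pore. Precursors with a cleavable presequence then go through the TIM23 complex with the help of an Hsp70 motor. Metabolite carriers with internal signals are escorted across the intermembrane space by hexamers of small TIM chaperones and inserted by the TIM22 complex. The small TIM proteins carry paired cysteine motifs that are oxidised on entry by the Mia40 relay.

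Total counts ran from 1775152 to 5917505 per library. Reads of Pml itself numbered 36, 35 and 44 in WT replicates 1, 2 and 3, against 14, 23 and 5 in knockout replicates 1, 2 and 3; tags at the transcript's end need not lie in the removed part. The 10 neural stem cell markers fixed for this check, among them Sox2 and Nes, all had reads. They summed to between 5577 and 8171 CPM in every library, where CPM are read counts scaled to the library total and its TMM factor. On that scale Pml had 10.7, 27.9 and 9.97 CPM in WT replicates 1, 2 and 3, and 2.1, 3.78 and 0.744 in the knockout libraries. The WT libraries were uneven. The 45S pre-ribosomal RNA row took 41.9% of counts in WT replicate 1, 39.8% in WT replicate 2 and 19.6% in WT replicate 3, against 14.6 to 17.6% in the knockout libraries. A list of 15 hepatocyte genes, all with reads, summed to 534, 846 and 160 CPM in WT replicates 1, 2 and 3, and to between 77.4 and 108 CPM in the knockout. The 5 neuron markers all had reads, summing to 450 to 632 CPM in WT and 557 to 596 in the knockout. Of the 6 erythroid markers only Alas2 had any read. Of the 5 endothelial markers 2 had reads, and Cdh5, Cldn5 and Tek were at 0 throughout. The endothelial list summed to 1.59 to 4.45 CPM in WT and 1.64 to 3.3 in the knockout. Of the 5 fibroblast and mural markers 4 had reads, summing to 0.906 to 5.94 CPM in WT and 1.64 to 4.11 in the knockout. Of the 6 microglial markers 5 had reads, summing to 0 to 23.1 CPM in WT, the top in replicate 2, and to 0 to 1.5 in the knockout. The part of these differences in the results below was not tested, so values are also given without WT replicates 1 and 2. In bulk libraries, fewer cells of a type and less RNA per cell cannot be told apart.

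By edgeR's quasi-likelihood test, 0 of the 20 members tested passed at an adjusted p under 0.05, where 0.00884% of all 11317 genes tested did. Over all genes 0 passed as lower in the knockout, so Pml itself did not pass. In the authors' deposited table Pml had an adjusted p of 0.00302. A member that did not pass is thus not shown to be unchanged. At an unadjusted p under 0.05 there were 6 members (30%, against 15.9% of all genes tested), 5 of them lower and 1 higher in the knockout. By direction that is 25% and 5% of members, against 9.19% and 6.7% of all genes. The 5 were Timm13, Timm10, Timm10b, Timm22 and Timm17b, and the 1 higher was Timm21. Genotypes did not overlap for 7 members lower in the knockout (35%, against 11.3% of all genes) and 1 higher (5%, against 12.3%). The median log2 fold change was -0.12 over the members and -0.01 over all genes tested, with 11 members below 0 (55%, against 50.3% of all genes) and 9 above. Scaling by library totals alone, with no correction for composition, moved the median of all genes to 0.43 and that of the members to 0.27, with 7 below 0 and 13 above, and 1 member had an unadjusted p under 0.05 (5%, against 16.1% of all genes). Relative to all genes the members stood at -0.16 there and at -0.11 with TMM factors. DESeq2 called 0 of the 20 members, beside 2.9% of all genes. Without WT replicate 3 there were 3 of 21 members that passed by edgeR (14.3%, against 13% of all genes), namely Timm10b, Timm17b and Tomm5, and 10 at an unadjusted p under 0.05 (47.6%, against 31.9%). Without WT replicates 1 and 2, which leaves 1 WT library, 0 of 22 passed, against 1.17% of all genes.

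**Figure D1:**
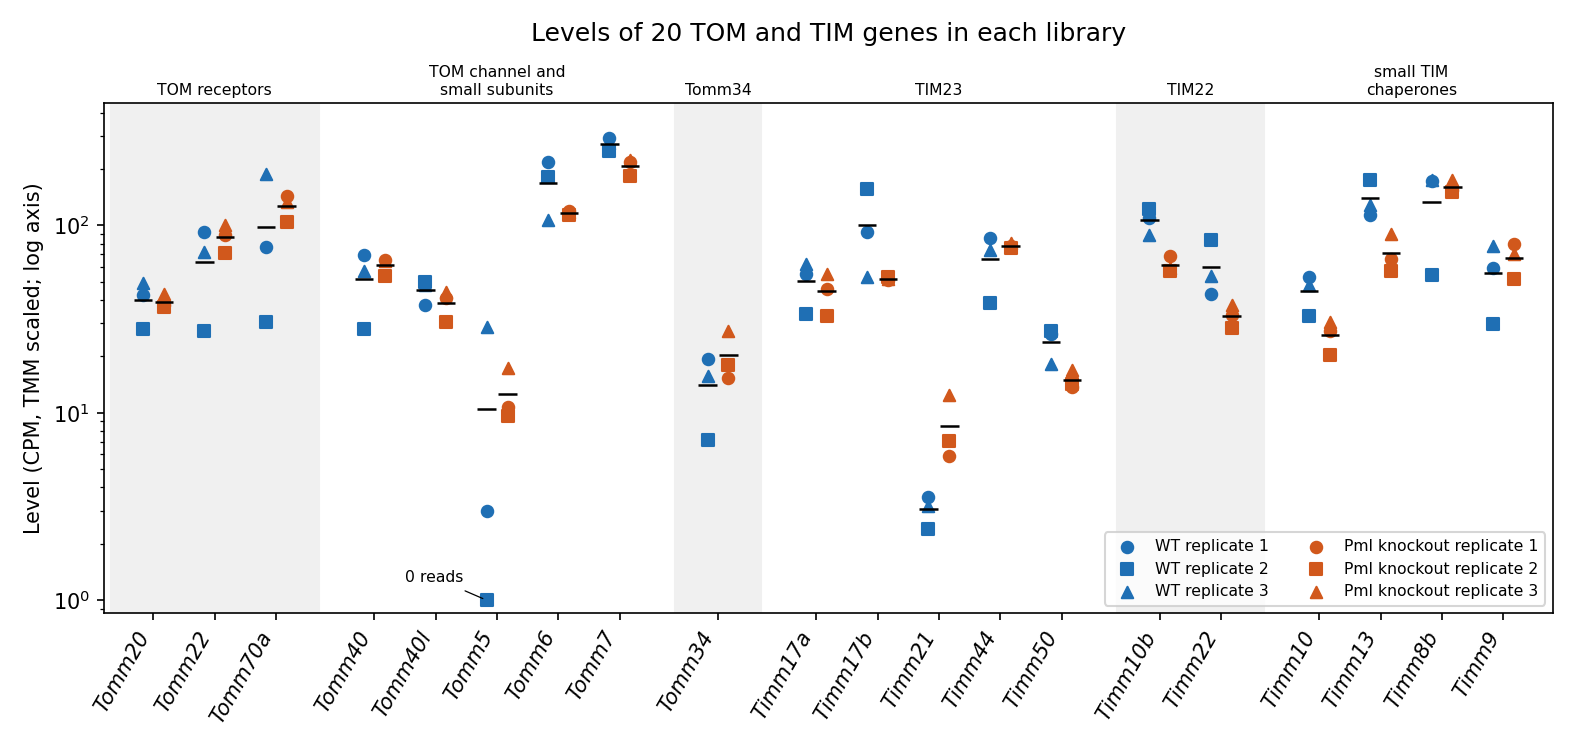
Levels of the 20 tested genes in each library, in CPM scaled by TMM factors on a log axis, with 1 point per library and a black line at the mean of each genotype. Points of Timm10, Timm10b, Timm13 and Timm22 separate by genotype, with WT higher, and those of Timm21 separate with the knockout higher; the Tomm5 point of WT replicate 2, at 0 reads, is drawn at the lower edge.

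The promoter stretches of 2 members with low knockout levels, Timm13 and Timm22, and of the chaperones Timm8b and Timm9, which were not lower, show the DNA just before the transcription starts. They are from RefSeq (GRCm38.p6), read 5′ to 3′ on the gene's strand, and exclude annotated exons. Capitals mark motif letters found by a search on both strands. RefSeq gives Timm22 more than 1 start, and its stretch lies before the first of them, upstream of the GENCODE start.

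Timm13 (chr10:80900970-80901119, minus strand): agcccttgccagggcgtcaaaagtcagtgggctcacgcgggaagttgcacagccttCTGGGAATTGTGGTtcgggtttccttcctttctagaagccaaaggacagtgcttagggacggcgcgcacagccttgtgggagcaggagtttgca
Timm22 (chr11:76406775-76406924, plus strand): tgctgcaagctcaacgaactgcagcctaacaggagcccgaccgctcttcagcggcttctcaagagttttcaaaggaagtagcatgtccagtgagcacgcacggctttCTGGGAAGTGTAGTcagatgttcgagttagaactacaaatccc
Timm8b (chr9:50603813-50603900, plus strand): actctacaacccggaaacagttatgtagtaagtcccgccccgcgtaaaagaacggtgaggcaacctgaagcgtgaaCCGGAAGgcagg
Timm9 (chr12:71136685-71136834, minus strand): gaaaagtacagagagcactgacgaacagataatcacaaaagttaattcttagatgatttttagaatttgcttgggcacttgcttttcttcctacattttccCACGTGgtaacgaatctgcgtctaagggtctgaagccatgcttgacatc

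In Timm13 and Timm22 the capitals mark a match to a form of the ZNF143 motif, on the strand opposite to the gene. This motif was added to the search after the stretches had been read. Its presence in these 2 genes was thus known beforehand, and its share among the members does not show enrichment. It occurred in 2 of 24 member windows, which run from 250 bases before to 50 after the start, and in 0.6% of 32851 windows of all genes. The windows of Timm10, Timm10b and Timm17b, which also had low knockout levels, held 0 matches. The ETS motif CCGGAAG, in capitals in Timm8b, occurred in 9 member windows, 37.5%, against 8.9% of all windows. These windows belong to 8 of 22 genes, as Tomm34 has 2 of them. The windows of all genes include genes without reads here, and enrichment of the motifs was not tested. The E-box CACGTG, in capitals in Timm9, occurred in 6, 25%, against 7.2%. Timm10 holds both the ETS and the E-box letters, and Timm10b holds the ETS letters, so both strings occur in members with and without overlap between genotypes. The NRF1 motif was in 2 windows, of Timm8b and Tomm20, which is 8.3% against 4.6%. The YY1 motif was in 1, that of Timm50 (4.2% against 0.6%). Windows were found for 22 of the 25 members. A match is a string of letters and does not show that a factor bound there.

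The outer membrane receptors did not separate by genotype. Tomm20, which binds presequences, had 42.3, 28.0 and 49.3 CPM in WT replicates 1, 2 and 3, and 37.5, 36.8 and 43.3 in knockout replicates 1, 2 and 3. Tomm22, the central receptor that also organises the complex, had 92.3, 27.2 and 72.2 CPM in WT against 89.1, 71.4 and 99.9 in the knockout. Tomm70a, which docks cytosolic chaperones that carry precursors with internal signals, had 77.1, 30.4 and 188 CPM in WT against 144, 104 and 133. Its end overlaps Nit2 on the opposite strand, for which between 12 and 209 reads per library were counted. For all 3 receptors the lowest of the 6 values was that of WT replicate 2, and WT replicate 3 held the highest value of Tomm20 and Tomm70a. No receptor had an unadjusted p under 0.05 by edgeR.

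The pore protein Tomm40 had 69.9, 28.0 and 57.0 CPM in WT and 65.7, 53.8 and 64.6 in the knockout, so its genotypes overlapped. Its paralogue Tomm40l had 45 ± 6.53 CPM in WT libraries against 38.6 ± 7.21 (SD, n = 3 each), with overlap. The end of Tomm40l overlaps Nr1i3, a liver nuclear receptor, on the opposite strand, which had 18 and 8 reads in WT replicates 1 and 2 and at most 1 in any other library. Tomm6, a small subunit that stabilises the complex, had 219, 181 and 107 CPM in WT against 119, 113 and 118. WT replicate 3 lay below every knockout library. The last part of the Tomm6 transcript shares 207 bases at 100% identity with Gm21981, an overlapping gene on the same strand. Tags from the shared part cannot be assigned to either gene, so the level of Tomm6 alone is uncertain. Usp49, on the opposite strand, also overlaps its end and had between 1 and 37 reads per library. Tomm34, a cytosolic co-chaperone with a TOM name, stood at 14.1 ± 6.23 CPM in WT libraries against 20.3 ± 6.25 in knockout ones (SD, n = 3 each).

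Tomm7, a small subunit, had the highest mean level of the members, 240 CPM. Tags come from transcript ends, so their counts do not scale with length. Levels of different genes still compare only roughly, since tags shared with another gene, as for Tomm6 and Timm23, cannot be assigned. Tomm7 had 293, 248 and 275 CPM in WT replicates 1, 2 and 3, and 217, 183 and 224 in the knockout libraries. Every knockout library was below every WT library, but the groups lay close together. Its log2 fold change was -0.39 (SE 0.240) with an edgeR adjusted p of 0.447, and with library totals it was 0.06. Tomm7 lies on chromosome 5 (GRCm38, 23838944 to 23844161, minus strand, ENSMUSG00000028998.6).

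Tomm5, another small subunit, varied most among the WT libraries relative to its mean. It had 10, 0 and 126 reads in WT replicates 1, 2 and 3, which is 2.98, 0 and 28.6 CPM; the 0 reads allow up to 2.39 CPM (3 reads). The knockout libraries had 10.8, 9.56 and 17.3 CPM, between WT replicates 1 and 3. Over all libraries its unadjusted p was 0.890 by edgeR. Without WT replicate 3 its log2 fold change was 2.67 (SE 0.721, edgeR adjusted p 0.0399), higher in the knockout. Without WT replicates 1 and 2 it was -1.19 (SE 0.348, adjusted p 0.0934), lower in the knockout. Tomm70a turned in the same way, with 1.21 (SE 0.373) without WT replicate 3 and -0.57 (SE 0.250) without WT replicates 1 and 2. The direction of both genes was thus set by which WT libraries entered the fit.

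**Figure D2:**
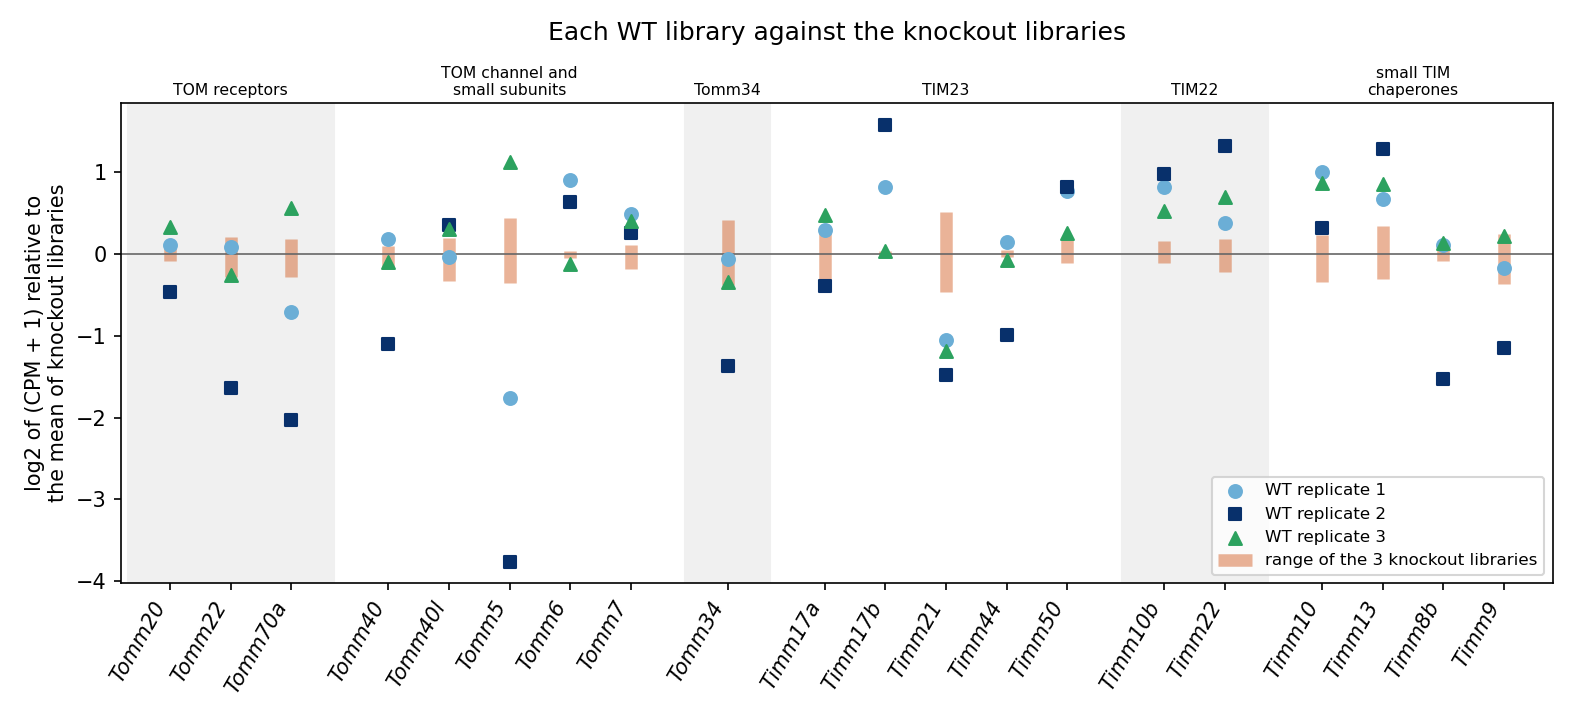
Level of each gene in the 3 WT libraries as the log2 of CPM plus 1 relative to the mean of the knockout libraries, with bars for the range of the 3 knockout libraries. WT replicate 2 lies below the bar for 10 of 20 genes, including Tomm22, Tomm70a, Tomm40 and Timm8b, and above it for 9, including Timm17b, Timm22 and Timm13.

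WT replicate 2, the shallowest library, stood apart in both directions. It was below all knockout libraries for 10 of 20 members and above all of them for 9 (50% and 45%, against 44.8% and 39.1% of all genes tested). WT replicate 1 was below for 3 and above for 10 (15% and 50%, against 38% and 37%). WT replicate 3 was below for 3 and above for 12 (15% and 60%, against 33.9% and 32.2%). Without WT replicate 2, 18 of 21 tested members had a log2 fold change below 0, or 85.7%, against 49.2% of all genes. The median of the members was then -0.22, beside 0.01 for all genes, and 0 members passed. Some of the 18 lay near 0, as did Timm44, Timm9 and Tomm40, each at -0.03 (SE 0.23, 0.271 and 0.246). With any other single library left out, 50 to 60% of the members were below 0. Of the reads outside the 45S row, without TMM factors, the members together had 2186, 1593 and 2263 CPM in WT replicates 1, 2 and 3, and 1860, 1671 and 2091 in the knockout libraries, which overlap.

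In the TIM23 complex, Timm17b was lower and Timm21 higher in every knockout library, and neither passed. Timm17b is one of the alternative forms of Timm17, which lines the presequence channel. It had 92.0, 157 and 53.1 CPM in WT and 51.0, 53.1 and 51.9 in the knockout. WT replicate 3 and knockout replicate 2 differed only beyond the digits given, and the other WT libraries were well above both. The log2 fold change was -0.94 (SE 0.369, edgeR adjusted p 0.266). It was -1.23 without WT replicate 3 (adjusted p 0.0241), -0.46 without WT replicate 2 and -0.04 without WT replicates 1 and 2 (adjusted p 0.963). Timm17b lies on the X chromosome (7899357 to 7908351, plus strand, ENSMUSG00000031158.11), and its end overlaps Gm10491 on the opposite strand. The other form, Timm17a, had 54.8, 33.6 and 62.2 CPM in WT and 45.7, 32.7 and 55.0 in the knockout, with overlap.

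Timm21, which links TIM23 to the TOM complex and to respiratory chain assembly, had few reads, with 12, 3 and 14 in WT against 39, 43 and 84. That is 3.57, 2.40 and 3.18 CPM against 5.87, 7.09 and 12.5, with no overlap. It was 2.69-fold higher in the knockout (log2 fold change 1.43, SE 0.513, edgeR unadjusted p 0.0189 and adjusted p 0.241). Knockout replicate 3 was highest, and without it the log2 fold change was 1.05. Without WT replicates 1 and 2 it was 1.41. It was over the filter level in 2 WT and 3 knockout libraries. The gene's end overlaps Fbxo15 on the opposite strand, which had 4 reads or fewer in each library.

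Timm50, the TIM23 receptor that takes presequences from the outer membrane, had 26.2, 27.2 and 18.2 CPM in WT and 13.8, 14.3 and 17 in the knockout. The lowest WT library, replicate 3, lay just above knockout replicate 3. In the fit it had a log2 fold change of -0.65 (SE 0.322, edgeR adjusted p 0.353), and it was -0.27 without WT replicates 1 and 2. Timm50 lies on chromosome 7 (28305516 to 28312072, minus strand, ENSMUSG00000003438.17). Timm44, which anchors the Hsp70 motor to the channel, had 85.7, 38.4 and 73.8 CPM in WT and 77.3, 75.4 and 80.2 in the knockout, with overlap.

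Timm23, the channel protein itself, was not tested, since only 2, 2 and 4 reads were counted in WT and 7, 5 and 12 in knockout libraries. A stretch of 275 bases at the end of its transcript is 100% identical in Gm10273, a gene on another chromosome. Reads that fit both cannot be assigned to one, so these counts do not give the level of Timm23.

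Both TIM22 members had lower levels in every knockout library, and neither passed the test. Timm22, which forms the insertion pore for carrier proteins, had 43.2, 83.9 and 53.8 CPM in WT and 33.2, 28.2 and 37.6 in the knockout. All knockout libraries were below all WT libraries, and WT replicate 2 was highest. A log2 fold change of -0.85 resulted (SE 0.319, edgeR unadjusted p 0.0228, adjusted p 0.249). It was -0.55 without WT replicate 2 and -0.71 without WT replicates 1 and 2. Timm22 lies on chromosome 11 (76406952 to 76416292, plus strand, ENSMUSG00000020843.15).

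Timm10b, the small TIM protein that sits on the TIM22 complex, had 109, 122 and 88.8 CPM in WT and 68.5, 57.1 and 59.2 in the knockout. All knockout libraries were below all WT libraries. At a log2 fold change of -0.78 (SE 0.254), the edgeR unadjusted p was 0.0112 and the adjusted p 0.236. Without WT replicate 3 the adjusted p was 0.0413, with -0.89, and without WT replicates 1 and 2 it was 0.275, with -0.53. Timm10b lies on chromosome 7 (105640056 to 105643637, plus strand, ENSMUSG00000089847.8), and its end overlaps Gm45799 on the same strand. Timm29, a TIM22 subunit that is not a member because the table lists it under its older symbol 1810026J23Rik, had 22.9, 12.8 and 34.0 CPM in WT and 33.6, 31.8 and 31.5 in the knockout, with overlap.

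**Figure D3:**
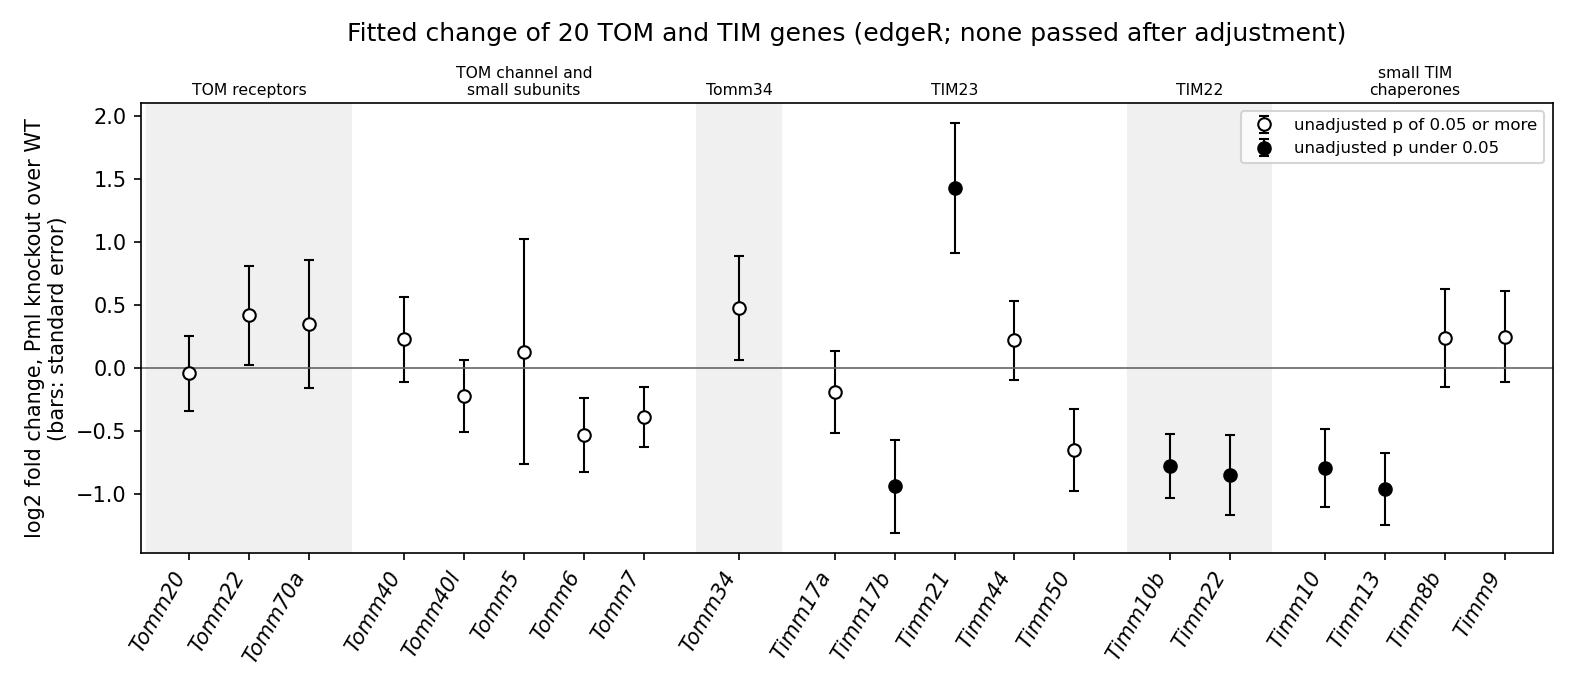
Fitted log2 fold change of Pml knockout over WT for each tested gene, with standard errors as bars, and filled points where the unadjusted p was under 0.05 by edgeR. Timm13, Timm10, Timm10b, Timm22 and Timm17b lie between -0.96 and -0.78, Timm21 lies at 1.43, and 0 genes passed after adjustment.

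Among the small TIM chaperones, Timm13 and Timm10 had lower levels in every knockout library without passing the test, and the genotypes overlapped for Timm8b and Timm9. Timm13, which forms a hexamer with Timm8 proteins, had the smallest p of all members. It had 114, 175 and 129 CPM in WT and 65.9, 57.1 and 90.5 in the knockout. The lowest WT library was above the highest knockout library. Means were 139 ± 32.0 CPM in WT and 71.2 ± 17.4 in knockout libraries (SD, n = 3 each), and the fit put the knockout at 51.3% of WT. The log2 fold change was -0.96 (SE 0.289) with an edgeR unadjusted p of 0.00738 and an adjusted p of 0.220. It was -0.86 without WT replicates 1 and 2, with an adjusted p of 0.106. Timm13 lies on chromosome 10 (80899450 to 80900969, minus strand, ENSMUSG00000020219.7). Its end overlaps Tmprss9 on the opposite strand, which had 5 reads in WT replicate 3 and 0 elsewhere.

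Timm10, which forms a hexamer with Timm9, had 53.0, 32.8 and 48.3 CPM in WT and 27.2, 20.4 and 30.7 in the knockout. The knockout libraries were all lower, with WT replicate 2 just above knockout replicate 3. In the fit the log2 fold change was -0.79 (SE 0.310, edgeR unadjusted p 0.0292, adjusted p 0.266), and it was -0.89 without WT replicates 1 and 2. Timm10 lies on chromosome 2 (84826997 to 84830213, plus strand, ENSMUSG00000027076.10).

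Timm9 had 59.5, 29.6 and 78.1 CPM in WT and 79.6, 51.6 and 70.4 in the knockout, with overlap. Timm8b had the highest mean level of the small TIM genes over all libraries, 146 CPM against 105 for Timm13. In WT the mean of Timm13 was the higher, 139 against 133 CPM. Timm8b had 172, 54.4 and 174 CPM in WT and 154, 150 and 174 in the knockout. WT replicate 2 was the only library apart from the rest. The log2 fold change of Timm8b was 0.24 (SE 0.389, edgeR adjusted p 0.774), and -0.13 without WT replicates 1 and 2. Timm8b lies on chromosome 9 (50603910 to 50605320, plus strand, ENSMUSG00000039016.5), and its end overlaps Nkapd1 on the opposite strand. Timm8a1, the mouse form of the gene mutated in deafness-dystonia syndrome, was not tested, with 9, 3 and 5 reads in WT against 11, 7 and 14.

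Read ratios within a library do not depend on how libraries are scaled. They were taken for 4 pairs of partners or paralogues chosen with the values known. Timm10 over Timm9, the partners of one hexamer, stood at 0.890, 1.11 and 0.619 in WT replicates 1, 2 and 3, and at 0.342, 0.396 and 0.436 in the knockout libraries. Every knockout ratio was below every WT ratio, with a log2 difference of -1.12 (SE 0.265) that was -0.67 without WT replicates 1 and 2. Timm13 over Timm8b stood at 0.661, 3.22 and 0.741 in WT and at 0.429, 0.380 and 0.521 in the knockout. The genotypes again did not overlap, with a log2 difference of -1.41 (SE 0.747) that was -0.67 without WT replicate 2 and -0.75 without WT replicates 1 and 2. For both pairs the exact two-sided permutation test gave p = 0.1, the smallest that 3 against 3 libraries allow, and 0.2 after Benjamini-Hochberg adjustment over the 4 pairs. Timm17b over Timm17a and Tomm40l over Tomm40 overlapped between genotypes, with exact p = 0.6 and 0.4 (adjusted 0.6 and 0.533). Since Timm10 and Timm13 were chosen as lower and Timm9 and Timm8b as not lower, these ratios describe the same reads and are no further support. Transcript GC content was 52.5% for Timm10 and 43.4% for Timm9, and 58.2% for Timm13 and 49.8% for Timm8b. It was 51.6% for Timm17b and 43.2% for Timm17a, and 52.2% for Tomm40l and 61.5% for Tomm40. The part of GC content in the ratios was not tested.

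**Figure D4:**
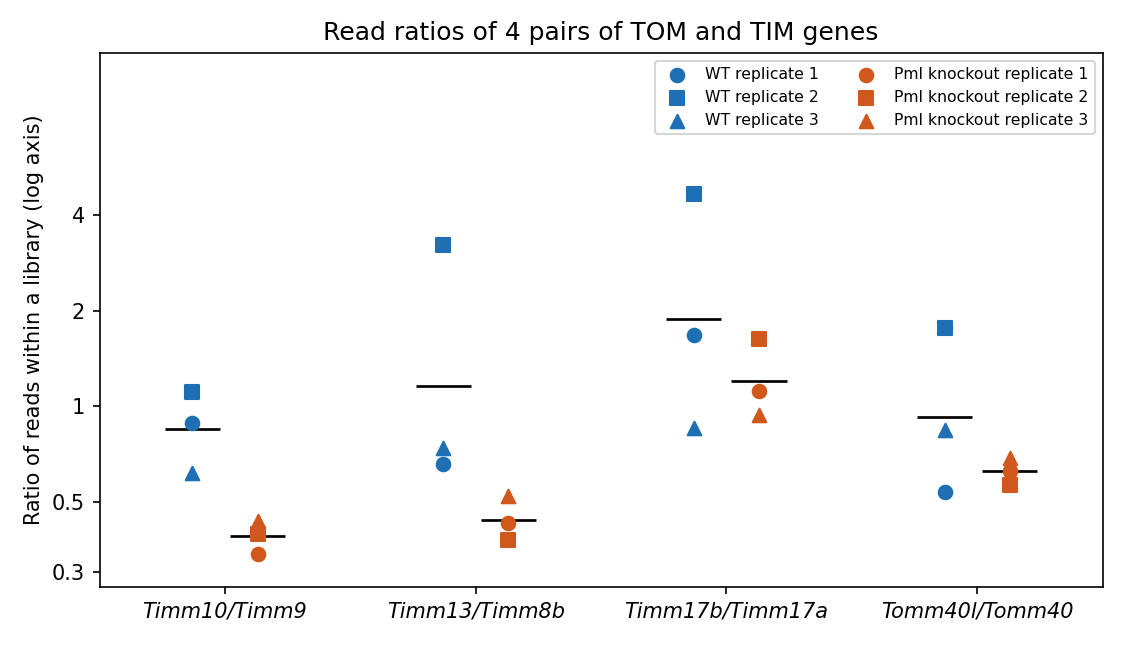
Ratio of reads of 4 gene pairs within each library on a log axis, with lines at the geometric mean of each genotype. Timm10 over Timm9 is 0.619 to 1.11 in WT and 0.342 to 0.436 in the knockout, and Timm13 over Timm8b is 0.661 to 3.22 in WT and 0.380 to 0.521; the other pairs overlap.

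Of the remaining members, Timm8a2 had 3 reads in knockout replicate 2, 2 in replicate 3 and 0 elsewhere. Tomm6os, a transcript antisense to Tomm6, had 0 to 5 reads per library. Tomm20l had 0 reads in 26617994 counts over all libraries, which allows up to 0.113 CPM. With Timm23 and Timm8a1 these are the 5 members that did not pass the filter on low counts. Timm9 and Tomm20l overlap at their ends on opposite strands, as do Tomm6 and Tomm6os along part of their length. Without a stated strand setting their reads cannot be told apart.

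The authors' deposited table gave p-values for 22 members, and 0 had an adjusted p under 0.05, where 2.94% of its 12349 genes did. Its smallest adjusted p among the members was that of Timm13, 0.101, with a log2 fold change of -0.929.

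The other genes of import were a list of 24, of which 23 were tested. They comprise the Hsp70 motor, the Mia40 relay, the outer membrane SAM complex, presequence processing, insertases and the TIM22 partner Agk, which had too few reads to be tested. By edgeR 0 passed, 9 had a log2 fold change above 0 and 14 below, and the median was -0.32, beside -0.01 over all genes tested. At an unadjusted p under 0.05, 1 was higher and 6 were lower (4.35% and 26.1% of the 23, against 6.7% and 9.19% of all genes tested).

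Pmpcb, the catalytic subunit of the matrix peptidase that removes presequences, had 19.0, 7.99 and 21.1 CPM in WT and 40.5, 67.4 and 69.2 in the knockout. Every knockout library was above every WT library. Its log2 fold change was 1.82 (SE 0.391) with an edgeR adjusted p of 0.197, and 1.48 without WT replicates 1 and 2. It passed by DESeq2 (adjusted p 0.00363) and in the authors' deposited table (0.00212). Its partner subunit Pmpca had 35.1, 40.8 and 36.8 CPM in WT against 33.9, 36.9 and 37.9, a log2 fold change of -0.05 (SE 0.265).

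Gfer, the sulfhydryl oxidase that reoxidises Mia40, had 103, 235 and 52.2 CPM in WT and 45.4, 31.2 and 47.6 in the knockout. WT replicate 3 was close to the knockout libraries. The log2 fold change was -1.63 (SE 0.482, edgeR adjusted p 0.220), and -0.34 without WT replicates 1 and 2. It passed by DESeq2 (adjusted p 0.0446) and in the authors' deposited table (0.0309). Chchd4, which is Mia40 itself, had a log2 fold change of -0.32 (SE 0.424).

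Mtch1, an outer membrane insertase, had 378, 846 and 206 CPM in WT and 181, 194 and 193 in the knockout, and its log2 fold change of -1.33 (SE 0.444) was -0.13 without WT replicates 1 and 2. Samm50, the core of the SAM complex that assembles Tomm40 in the membrane, had 148, 70.3 and 97.4 CPM in WT and 64.8, 53.3 and 66.7 in the knockout. Its log2 fold change of -0.78 (SE 0.311) was -0.66 without WT replicates 1 and 2. Romo1, a small TIM23 subunit, had 159, 238 and 198 CPM in WT and 100, 136 and 143 in the knockout, at -0.65 (SE 0.270) with and -0.65 without those libraries. Dnajc15, a J protein of the import motor, had 37.5, 72.7 and 34.7 CPM in WT and 24.2, 19.3 and 27.9 in the knockout, at -1.0 (SE 0.356) with and -0.55 without them. Adjusted p-values of these genes were between 0.238 and 0.287 by edgeR.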

How the data were processed

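The submitters' processing notes name mm10 and, as tools of the authors, HISAT2, HTSeq, FastQC and edgeR. Versions, annotation and the strand setting: not given in the sources used here. RNA was made into 3′ tag libraries (QuantSeq forward), per the labels' protocols. The authors deposited whole-number read counts per gene, a normalized score rounded to whole numbers and their dispersions (a score), mean normalized signal per group, a fold ratio, a log2 fold change and p-values, per the file headers. Only the counts were tested, and the normalized values of each library were not used.

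The whole table was fitted in R 4.3.3 with edgeR 4.0.16: default filter (count minimum 10, total 15), TMM factors, quasi-likelihood F test (robust) between the genotypes, Benjamini-Hochberg adjustment over 11317 genes. The code was checked on simulated counts, in which libraries of a genotype differed only in depth and by random draws. The simulation lacked the unevenness of the WT libraries, so it does not show how the fit performs on them. The standard error is the log2 fold change divided by the square root of F. CPM carry TMM factors. Alternatives used DESeq2 1.42.0, limma 3.58.1, other scalings, filters and left-out libraries. Gene positions are from GENCODE M21 (GRCm38, the assembly mm10 names). Transcript copies were sought with blastn 2.17.0 in the last 300 bases (95% identity over 100 bases). Intervals and floors cover counting error only. Full statistics were given to members with an unadjusted p under 0.05, with no overlap, or among the 2 highest in mean level, and up to 6 other import genes of smallest p were named. Tomm5, Tomm70a, Tomm6, Pmpca and Chchd4 were given more values after theirs were seen. Members, lists and pairs were chosen with earlier results of these data known.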

Additional observations from a re-analysis of the deposited data

How the results depend on the processing

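For the 9 members with full statistics, 139 of 144 alternatives kept the direction and the side of the threshold, and the cause of the rest was not tested. These members did not pass in the main fit, so keeping the side means only that they again did not pass. The size could still move, as for Timm17b from -0.94 to -0.04 without WT replicates 1 and 2. Timm10b and Timm17b passed without WT replicate 3 (above). With single libraries left out, Timm8b ranged from -0.11 (no WT replicate 2) to 0.48 (no WT replicate 3), and with WT replicates 1 and 2 both left out it was -0.13. Tomm7 turned to 0.06 with library totals. Timm17b over Timm17a turned to 0.49 without WT replicates 1 and 2. With single libraries left out, members passing ranged from 0 to 3, members at an unadjusted p under 0.05 from 2 to 10, members without overlap from 7 to 12, other import genes passing from 0 to 4, and all genes passing from 0 to 1526. Each of these counts was highest without WT replicate 3. The 4 other import genes passing there, of 24 listed, stood beside 13% of all genes tested. Members at an unadjusted p under 0.05 numbered 3, 2 and 3 without knockout replicates 1, 2 and 3 (15%, 10% and 15%, against 11.1%, 6.54% and 8.1% of all genes). The 7 without overlap, without knockout replicate 3, were 35% against 29.2%, and the 12, without WT replicate 3, were 57.1% against 50.9%. With single libraries left out, the median of the members ranged from -0.23 to 0.01. With library totals 1 member had an unadjusted p under 0.05, 5 did not overlap (25%, against 27.9% of all genes) and the median was 0.27. Without WT replicates 1 and 2, 17 did not overlap (77.3%, against 65.8%), by construction since 1 WT library remained, which is assumed to vary like the knockout libraries. DESeq2 called 2 of the 23 other import genes tested and 0 members, where it called 2.9% of all genes. All genes passing numbered 0 with DESeq2 size factors, library totals, limma voom or no Rn45s row. They numbered 3 with no count filter, 328 by DESeq2, and 142 without WT replicates 1 and 2, beside 1.

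With the replicate number of the sample titles as a block, 2 genes passed, none of them a member (0), and the median of the members was -0.08. Libraries of the same title number deviated together at correlations of 0.004, 0.077 and 0.193, so the numbers were not taken as pairs. The library names number the knockout libraries 1 higher than the titles do. By name, WT replicate 2 shares its number with knockout replicate 1, at 0.082. WT replicate 3 likewise shares its number with knockout replicate 2, at -0.063. A block by library name was not fitted. Low read numbers limit the precision for Timm21 and Tomm5.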

Other observations

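Transcript GC content moved with the differences between WT libraries. Across all 10921 tested genes with a GENCODE transcript, the Spearman correlation of GC content with the log2 ratio of WT replicate 1 to WT replicate 3 was 0.43, and with that of WT replicate 2 to WT replicate 3 it was 0.31. With the log2 ratio of the knockout mean to WT replicate 3 it was 0.03. Across the 20 tested members the values were 0.48, 0.35 and 0.13. GC content also correlated with the fitted fold change at -0.36 across genes and -0.39 across members. These correlations are across genes of the same libraries, several share WT replicate 3, and they were chosen after the data were seen; the part of GC content in the members' values was not tested. Timm13 and Timm50 had 58.2% and 58.3% GC and log2 fold changes of -0.96 and -0.65. Tomm40, with the highest GC content of the members at 61.5%, had 0.23.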
